A study of Mus musculus with 16 samples.

Results

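The Mdm2 block is a run of neighbouring genes on mouse chromosome 10 whose transcripts took 2.43% to 4.06% of all gene counts in every tumour of this study. Its 10 members were chosen by their place around Mdm2 and, from measured levels, because most of them were very highly expressed in these same tumours: Mdm2, Cct2, Cpsf6, Frs2, Slc35e3, Yeats4, Rab3ip, Cpm, Best3 and Lrrc10. They are 10 of the 55414 genes in the count table, and all 10 passed the filter on low counts that 18946 genes passed. Because level chose the block, levels are described here without a test, and tests are given only for differences between treatments.

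RNA was sequenced from 16 tumours grown from B6MyC-CaP, a prostate cancer line made from a Hi-MYC transgenic mouse that had been crossed onto C57BL/6. In Hi-MYC mice a prostate-directed, androgen-responsive promoter drives human MYC. The cells were placed under the skin of C57BL/6 males aged 6 weeks, and treatment began when tumours had formed. All 16 tumours therefore come from 1 cell line that carries the transgene, and the 4 groups of 4 are labelled by treatment. Vehicle mice ate chow freely and were the controls without enzalutamide. ENZ mice ate freely and received enzalutamide, an androgen receptor antagonist, by mouth each day at 20 mg/kg. ADF mice had alternate-day fasting, 24 h without food and then 24 h with free access. ADF+ENZ mice had both. The labels do not say in which of these phases a fasted tumour was taken. Nor do they say that each library came from its own mouse, so p-values measure the spread between these libraries. Replicate numbers follow accession order and serve as names only.

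Libraries held 10072489 to 25505655 gene counts. The ADF libraries stood apart: 30.3% to 36.7% of their reads fell in no annotated gene, against 21.2% to 27.9% in the other 12, so fasting without drug and this share cannot be told apart. The label of prostate cancer was checked against epithelial markers. The keratins Krt8 and Krt18 averaged 501 and 121 CPM (counts scaled to a common library size), whereas Epcam averaged 0.42 CPM and Cdh1 2.39 CPM, so 2 defining epithelial markers were low or nearly absent. Of the 6 epithelial markers listed, 4 averaged 1 CPM or more, and the 6 summed to 298 to 886 CPM per tumour. The 6 fibroblast markers, Col1a1, Col1a2, Col3a1, Pdgfra, Dcn and Lum, summed to 8840 to 13358 CPM. Which cells this RNA came from was not tested. In bulk tumour RNA, fewer cells of a type and less RNA per cell cannot be told apart. DNA copy number was not measured.

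Mdm2 encodes the ubiquitin ligase that marks p53 for destruction, and Mdm2 is itself switched on by p53, which closes a feedback loop. The human counterparts of Mdm2, Frs2, Cct2, Cpsf6 and Yeats4 also lie side by side, in a segment that is known from sarcomas as a frequent site of gene amplification. Most genes of the block have housekeeping or signalling roles that are unrelated to each other.

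Promoter sequences from RefSeq on build GRCm38.p6 are shown for the leading gene, for the most abundant member, for the member with an E-box and for a low member that lies next to a high one. Each is the 250 bases before a transcription start, written 5′ to 3′ on the gene's own strand. Capitals mark CACGTG, the E-box bound by MYC family proteins, and GGGCGG or its reverse complement CCGCCC, the GC-box core.
Mdm2, chr10:117710759-117711008, minus strand: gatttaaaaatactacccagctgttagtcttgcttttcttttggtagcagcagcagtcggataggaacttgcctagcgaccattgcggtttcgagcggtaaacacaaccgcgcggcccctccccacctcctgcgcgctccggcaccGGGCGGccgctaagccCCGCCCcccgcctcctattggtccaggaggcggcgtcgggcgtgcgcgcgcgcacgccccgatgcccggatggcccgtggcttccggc
Cct2, chr10:117063853-117064102, minus strand: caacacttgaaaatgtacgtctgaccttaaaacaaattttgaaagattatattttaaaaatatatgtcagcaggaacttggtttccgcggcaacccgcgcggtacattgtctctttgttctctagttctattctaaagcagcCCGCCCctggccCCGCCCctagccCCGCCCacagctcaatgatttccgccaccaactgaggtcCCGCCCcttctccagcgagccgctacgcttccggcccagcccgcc
Slc35e3, chr10:117746359-117746608, minus strand: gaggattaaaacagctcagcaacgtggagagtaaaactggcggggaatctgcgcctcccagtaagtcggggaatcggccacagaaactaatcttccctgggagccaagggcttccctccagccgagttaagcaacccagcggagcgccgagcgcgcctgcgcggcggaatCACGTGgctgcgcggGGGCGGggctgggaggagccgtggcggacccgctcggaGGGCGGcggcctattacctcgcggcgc
Lrrc10, chr10:117045091-117045340, plus strand: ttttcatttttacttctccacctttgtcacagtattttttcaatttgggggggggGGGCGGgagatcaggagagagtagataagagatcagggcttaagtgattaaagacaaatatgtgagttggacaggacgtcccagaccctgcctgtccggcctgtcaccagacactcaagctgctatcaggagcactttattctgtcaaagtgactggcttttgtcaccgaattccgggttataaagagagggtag
The table held 10 such windows for 9 of the 10 members, with 2 alternative starts for Cct2. Searched on both strands, CACGTG stood in 1 of the 10 windows, that of Slc35e3, against 6.02% of all 32851 windows. GGGCGG stood in 9 of the 10, the exception being Yeats4, against 32.7% of all windows. This second motif was chosen after the windows had been read. The Lrrc10 window differed in composition: it was 46.8% G and C, held 5 CpG pairs and carried a TATAAA, whereas the other windows ran from 52.4% to 74.4% G and C with 11 to 30 CpG pairs and no TATAAA. The median over all windows was 52.4% with 6 CpG pairs. A match describes these letters and is not a binding site.

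The block was not uniformly high. Levels per length (RPKM, the CPM divided by the length of the annotated exons in kilobases) split the members into 7 high genes with means of 220 RPKM or more and 3 low genes with means under 8 RPKM. Cct2, a subunit of the TRiC chaperonin that folds actin and tubulin, averaged 4837 ± 815 RPKM (SD, n = 16), rank 2 of 21927 protein-coding genes per length and rank 1 by CPM. Mdm2 averaged 1000.1 ± 132 RPKM, rank 12. Slc35e3, a member of a family of nucleotide-sugar transporters, averaged 905 ± 199 RPKM, rank 13. Those 3 genes were thus among the 13 most abundant protein-coding transcripts per length.

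Yeats4, a reader of acetylated histones found in the TIP60 and SRCAP complexes, averaged 710 ± 137 RPKM and ranked 19. Frs2, the adaptor that links FGF receptors to downstream kinases, averaged 605 ± 85.9 RPKM and ranked 25. Cpsf6, a subunit of the cleavage factor that sets the choice of poly(A) sites, averaged 528 ± 90.5 RPKM and ranked 35. Rab3ip, also known as Rabin8, the exchange factor for Rab8, averaged 220 ± 18.7 RPKM and ranked 104. The middle of the order was close: Mdm2 and Slc35e3, Slc35e3 and Yeats4, Yeats4 and Frs2, and Frs2 and Cpsf6 each differed by less than the larger SD of the pair. Cct2 and Rab3ip lay farther than that from their neighbours in the order. This SD is the spread between tumours of all groups. It does not test the order of genes measured in the same libraries. For comparison, 122 protein-coding genes exceeded 200 RPKM and the median of the 12795 such genes at 1 CPM or more was 6.30 RPKM.

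The 3 low members sat at the level of an ordinary expressed gene. Cpm, a membrane-bound carboxypeptidase, averaged 7.82 ± 1.93 RPKM and ranked 5529. Lrrc10, a leucine-rich repeat protein known from heart muscle, averaged 6.37 ± 2.08 RPKM and ranked 6363. Best3, of the bestrophin family of chloride channels, averaged 3.43 ± 1.35 RPKM and ranked 8631. All 7 high members are annotated on the minus strand and all 3 low members on the plus strand. In counts the contrast was as plain: Cct2 had 124697 to 365590 counts in a library and its immediate neighbour Lrrc10 57 to 264.

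**Figure D1:**
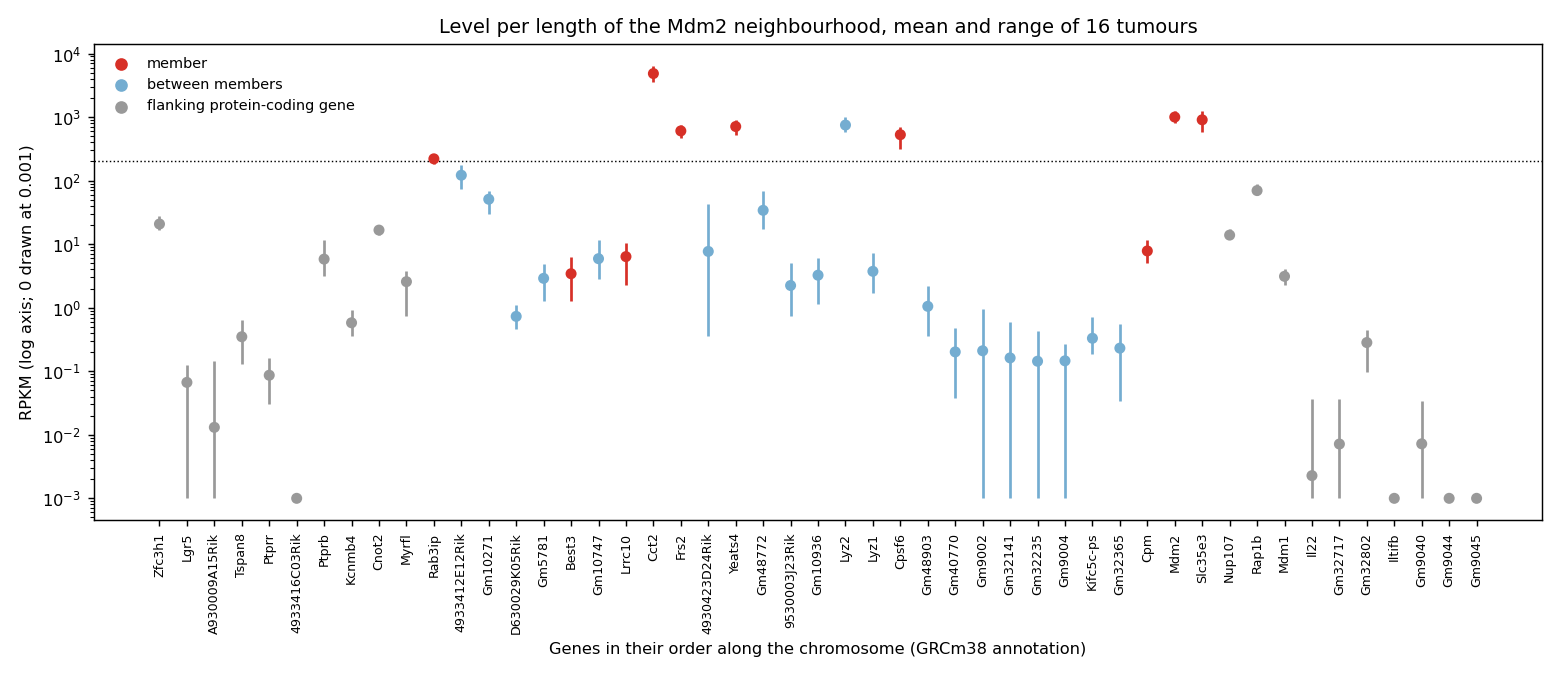
Mean (point) and range (line) over 16 tumours of the level per length, in RPKM on a log axis, of every annotated gene from Rab3ip to Slc35e3 and of 10 protein-coding genes on each side, in chromosome order. The means of the 7 high members and Lyz2 stand above the dotted line at 200 RPKM, with the range of Rab3ip reaching down to 184.6 RPKM. Means of Cpm, Best3 and Lrrc10 lie under 8 RPKM (highest tumour 11.5 RPKM, for Cpm), and the highest flanking gene, Rap1b, has a mean of 69.7 RPKM and a highest tumour of 88.5 RPKM.

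The outermost members stood far above the nearest protein-coding genes outside. The members were chosen with their level known, so these steps were largely set by that choice and are a description. Steep steps also lay inside the block, as between Lrrc10 (6.37 RPKM) and Cct2 (4837 RPKM). From Rab3ip to Slc35e3 the GRCm38 annotation holds 29 genes over 841 kilobases. Myrfl, the nearest protein-coding gene outside Rab3ip, averaged 2.57 RPKM, and Rab3ip was 85.7 times higher, with a lowest ratio of 53.3 in any library. Nup107, a nuclear pore subunit just beyond Slc35e3, averaged 13.9 RPKM, and Slc35e3 was 65.2 times higher, with a lowest ratio of 43.0. Among the 10 flanking protein-coding genes on the Rab3ip side the highest mean was that of Zfc3h1 at 20.8 RPKM, and on the Slc35e3 side Rap1b, a small GTPase, at 69.7 RPKM. The 5 nearest on the first side were Myrfl, Cnot2 (16.6 RPKM), Kcnmb4 (0.58 RPKM), Ptprb (5.81 RPKM) and 4933416C03Rik, which had no count. On the other side Nup107 and Rap1b were followed by Mdm1 (3.12 RPKM), Il22 (0.0023 RPKM) and Gm32717 (0.0072 RPKM).

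Between the members lie 19 other annotated genes, of which 16 were under 10 CPM and 9 under 1 CPM. The highest was Lyz2, a lysozyme of macrophages, at 749 ± 135 RPKM. The lncRNA 4933412E12Rik, which starts from the same stretch as Rab3ip on the opposite strand and overlaps it, averaged 122 RPKM; no source used here states a strand setting for the counting, so the 2 levels cannot be told apart where the genes overlap. Gm48772, a lncRNA divergent from Yeats4, averaged 34.1 RPKM, and Gm10271, a short predicted gene, 50.9 RPKM on only 7.94 CPM. The remaining 15, among them the predicted gene 9530003J23Rik and Lyz1, the second lysozyme gene, averaged 0.144 to 7.69 RPKM. When every run of 16 consecutive protein-coding genes in the genome was scanned, 14 runs held 5 or more genes above 200 RPKM, and all 14 lay here, with up to 8. The run length and the level for this scan were chosen after the values were seen, so the scan is a description.

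The high members also exceeded the genes they work with. Cct2 acts in a ring with 7 other subunits, and those averaged 195 RPKM for Cct5, 80.3 for Cct6a, 52.6 for Cct8, 43.4 for Cct4, 38.0 for Tcp1, 25.5 for Cct7 and 24.9 for Cct3. Cct2 was 24.7 times the highest of them on average and 20.1 to 29.9 times in single libraries. Cpsf6 pairs with Nudt21 in cleavage factor Im, and Cpsf7 can take its place; these averaged 9.48 and 16.7 RPKM, so Cpsf6 was 31.6 times the higher. In both complexes a single subunit was listed far above its partners.

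Mdm2 stood above all 10 listed p53 regulators, of which the ribosomal protein gene Rpl5 was highest at 149 RPKM. Trp53, which encodes p53, averaged 23.6 RPKM, and Mdm4, the relative of Mdm2 that restrains p53, averaged 8.76 RPKM. Yeats4 was 38.4 times the highest of 16 TIP60 and SRCAP partners, Ep400 at 18.5 RPKM. Slc35e3 was 21.9 times the highest of its 3 relatives, which ran from 5.88 to 41.3 RPKM. Rab3ip was 4.21 times Rab10, the highest of 9 genes of its Rab cascade at 52.3 RPKM. Each of these members was above every listed partner in 16 of 16 libraries. The high members were chosen with their level in these tumours known. Standing above their partners was therefore largely set by that choice, and these ratios are a description and not a test.

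Frs2 was closest to a partner. Fgfr1, the receptor it docks to, averaged 369 ± 58.5 RPKM, and Frs2 exceeded it 1.64-fold, from 1.42-fold to 1.87-fold across libraries. The other receptors Fgfr2, Fgfr3 and Fgfr4 averaged under 0.2 RPKM. Of the low members, Cpm lay below its relative Cpe (103.9 RPKM) in every library, and Best3 lay above Best1 (0.453 RPKM) and Best2 (0.0311 RPKM) in every library.

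**Figure D2:**
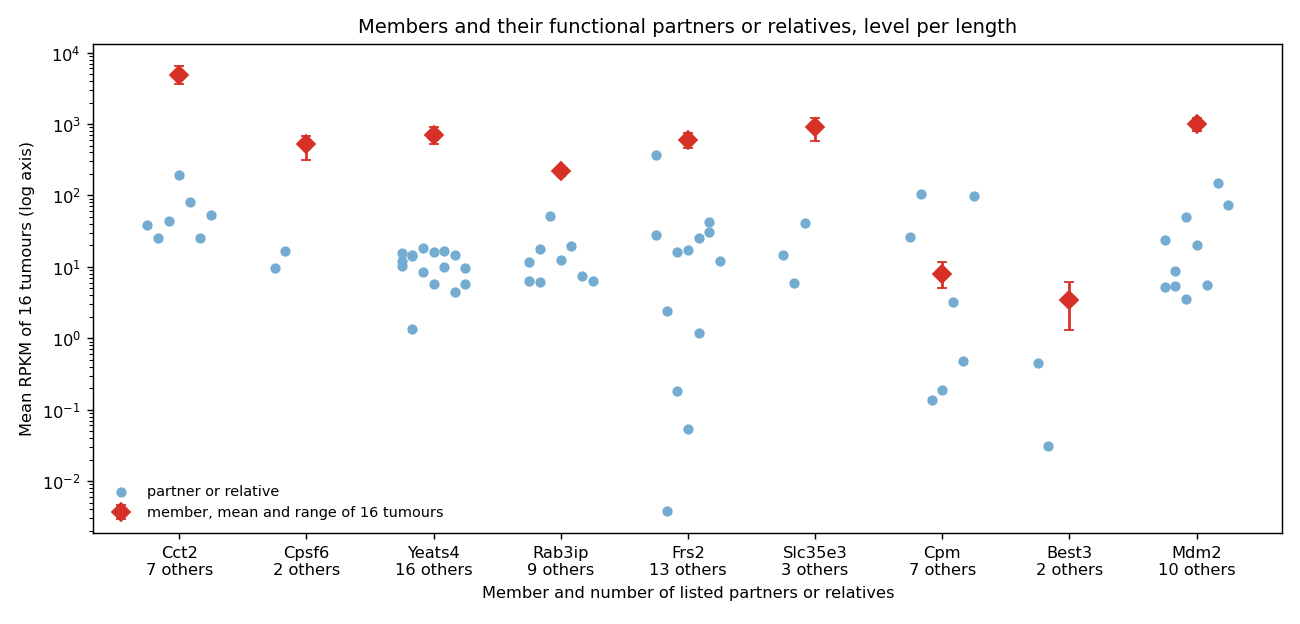
Level per length, in RPKM on a log axis, of 9 members (diamonds, mean and range of 16 tumours) and of the listed partners or relatives of each (points, mean of 16 tumours). Cct2, Cpsf6, Yeats4, Rab3ip, Frs2, Slc35e3, Best3 and Mdm2 lie above all their partners, and Cpm lies below Cpe.

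Treatment effects on the block were small beside its level: no high member called by edgeR differed by more than 1.5-fold, and every such call was a rise. All treatment comparisons come from a single edgeR quasi-likelihood fit of 16 libraries, with Benjamini-Hochberg adjustment over 18946 genes and a threshold of 0.05. The comparisons with Vehicle share the same 4 Vehicle libraries. The members' summed share of gene counts was lowest in Vehicle tumours, at 2.85% ± 0.321 (SD, n = 4). It was 3.39% ± 0.153 under ENZ and 3.39% ± 0.459 under ADF, and 3.63% ± 0.106 with both treatments. Every ENZ and ADF+ENZ tumour lay above the highest Vehicle share of 3.21%, and ADF tumours, from 3.001%, overlapped Vehicle.

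**Figure D3:**
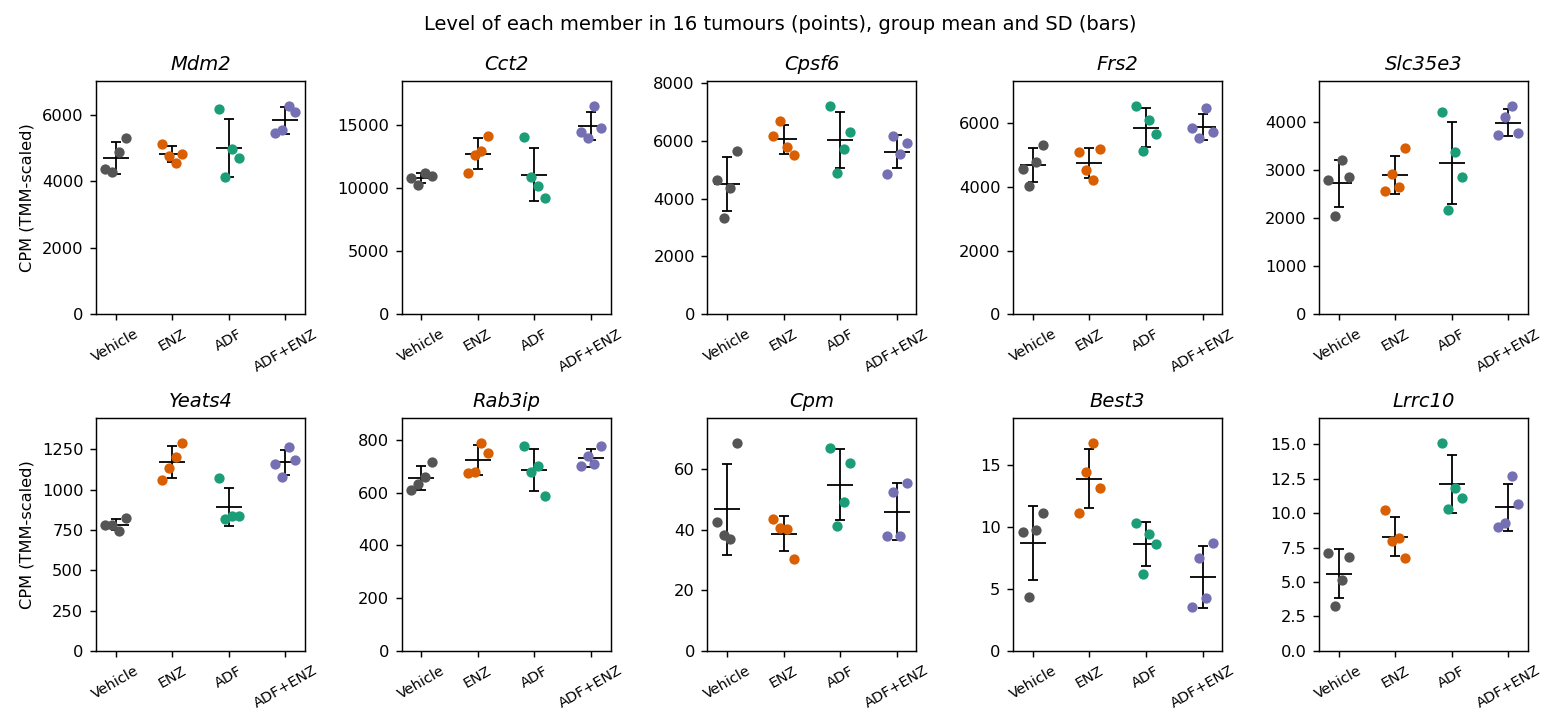
Level of each member in CPM for 16 tumours (points) by group, with the group mean and SD (bars); each vertical axis starts at 0. Yeats4 separates the enzalutamide-treated groups (1059 to 1292 CPM) from Vehicle (746 to 826 CPM), and ADF replicate 1 lies at or near the top of its group in most panels.

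Enzalutamide in freely fed mice raised Yeats4. Its level was 780.4, 781, 746 and 826 CPM in the Vehicle tumours and 1059, 1134, 1205 and 1292 CPM in the ENZ tumours. All 4 ENZ values lay above all 4 Vehicle values. The difference was 0.58 ± 0.098 on the log2 scale (SE), a 1.5-fold rise with an edgeR adjusted p of 0.00167, and the call held when any 1 of the 16 libraries was left out. Yeats4 was 1 of 10 members called up, against 1.81% of all genes tested (5.43% in either direction), and no member was called down, against 3.62%. The median member difference was 0.19, against 0.01 over all genes.

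Cpsf6 came next among the high members. It measured 4647, 3338, 4382 and 5634 CPM in Vehicle and 6182, 6686, 5801 and 5516 CPM in ENZ tumours, with ENZ replicate 4 inside the Vehicle range. Its difference of 0.43 ± 0.15 had an edgeR adjusted p of 0.0948 and was not called, whereas DESeq2 called it at an adjusted p of 0.0393. Best3 did not overlap between the groups, at 4.34 to 11.1 CPM in Vehicle and 11.2 to 16.8 CPM in ENZ tumours, but its log2 difference of 0.68 ± 0.28 had an edgeR adjusted p of 0.184. Mdm2 differed by 0.03 ± 0.12 (edgeR adjusted p = 0.918).

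Alternate-day fasting without drug raised Lrrc10, the low member beside Cct2. Lrrc10 measured 7.13, 3.26, 5.17 and 6.80 CPM in Vehicle and 15.1, 10.3, 11.8 and 11.1 CPM in ADF tumours, on 57 to 123 and 150 to 189 counts. The groups did not overlap. The rise was 1.11 ± 0.21 on the log2 scale, 2.16-fold, with an edgeR adjusted p of 0.00341, and it was called in all 16 fits that left out 1 library. It was 1 of 10 members called up, against 4.05% of all genes (9.01% in either direction), and none was called down, against 4.96%. DESeq2 called 3 members and limma-voom 2, against 12.4% of all genes in either direction by each. With the share of reads in no gene as a covariate, which left 6 of 18946 genes called, the Lrrc10 difference was 0.98 with an edgeR adjusted p of 0.320. Some other genes between the members were also higher in ADF tumours. Gm10747, next to Lrrc10, ran from 2.86 to 5.11 CPM in Vehicle and from 6.04 to 11.8 CPM in ADF tumours. For 9530003J23Rik these ranges were 1.26 to 3.09 and 3.85 to 5.23 CPM. Means of 4933412E12Rik, Gm5781, Lyz2 and Kifc5c-ps were lower in ADF tumours. These values are given without a test.

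Lrrc10 is known as a heart gene, so cardiac markers were read beside it. The 6 cardiac markers summed to 3.33 to 14.9 CPM in Vehicle and 2.20 to 7.52 CPM in ADF tumours, with 1 of the 6 at 1 CPM or more and Myh6 and Myl7 at 0.01 and 0.02 CPM. In ADF+ENZ tumours the sum was 1.31 to 3.68 CPM. The part of cardiac RNA in the Lrrc10 difference was not tested.

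Frs2 and Cpsf6 were higher on average under fasting without passing the edgeR threshold. Frs2 measured 4559, 4043, 4777 and 5326 CPM in Vehicle and 6540, 5114, 6092 and 5674 CPM in ADF tumours, and the ranges overlapped by ADF replicate 2. Its difference was 0.32 ± 0.11, with an adjusted p of 0.0755 by edgeR, 0.0261 by DESeq2 and 0.0327 by limma-voom. Cpsf6, at 4877 to 7203 CPM in ADF tumours, differed by 0.42 ± 0.15, with an adjusted p of 0.0745 by edgeR, 0.0389 by DESeq2 and 0.0632 by limma-voom. Mdm2 differed by 0.08 ± 0.12 (edgeR adjusted p = 0.695), and its value of 6176 CPM in ADF replicate 1 stood above the 4118, 4974 and 4687 CPM of the other ADF tumours.

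Fasting together with enzalutamide raised 4 members over Vehicle: Cct2, Slc35e3, Yeats4 and Lrrc10. These 4 of 10 were called up, against 5.97% of all genes tested (12.5% in either direction), and none was called down, against 6.53%. DESeq2 called 6 members and limma-voom 5, against 15.1% and 12.9% of all genes in either direction. The median difference was 0.33 over the members, with 8 of 10 positive, and 0.00 over all genes. The 2 groups did not overlap for Mdm2, Cct2, Frs2, Slc35e3, Yeats4 and Lrrc10, and overlapped for Cpsf6, Rab3ip, Cpm and Best3. The share of all genes without overlap was not computed, so this is a description of single members.

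Cct2 measured 10762, 10261, 11198 and 10943 CPM in Vehicle and 14455, 13943, 16492 and 14774 CPM in ADF+ENZ tumours. The lowest ADF+ENZ value was above the highest Vehicle value. The rise was 0.47 ± 0.13, 1.38-fold, with an edgeR adjusted p of 0.0212. The call was lost without Vehicle replicate 1 (0.46, edgeR adjusted p = 0.0518) and without ADF+ENZ replicate 3 (0.41, edgeR adjusted p = 0.0730).

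Yeats4 reached 1157, 1078, 1268 and 1182 CPM in the ADF+ENZ tumours, all above Vehicle. Its rise of 0.58 ± 0.098 (edgeR adjusted p = 0.00122) matched in size that under enzalutamide alone, and the call held in all 16 fits that left out 1 library. Lrrc10 reached 8.99, 9.29, 12.7 and 10.7 CPM, again all above Vehicle, a rise of 0.89 ± 0.21 with an edgeR adjusted p of 0.00895 that also held in all 16. These 2 members carried the firmest calls of the comparison.

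Slc35e3 measured 2801, 2043, 3216 and 2846 CPM in Vehicle and 3736, 4106, 4334 and 3768 CPM in ADF+ENZ tumours. The groups were separate, and the rise was 0.55 ± 0.17, 1.46-fold, with an edgeR adjusted p of 0.0390. This call was the least firm: leaving out Vehicle replicate 1, 2 or 4 gave edgeR adjusted p-values of 0.0719, 0.0997 and 0.0694, and leaving out ADF+ENZ replicate 1, 2, 3 or 4 gave 0.0587, 0.0706, 0.110 and 0.0504, with log2 differences from 0.43 to 0.58. With no filter on low counts it was 0.53 (edgeR adjusted p = 0.117).

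Mdm2 itself stopped short of the threshold. It measured 4356, 4276, 4888 and 5298 CPM in Vehicle, 5118, 4748, 4555 and 4814 CPM in ENZ, and 5438, 5537, 6259 and 6092 CPM in ADF+ENZ tumours. All 4 ADF+ENZ values lay above all Vehicle and all ENZ values. The difference from Vehicle was 0.31 ± 0.12, 1.24-fold, with an edgeR adjusted p of 0.0929, and DESeq2 gave 0.31 with an adjusted p of 0.0423. Frs2 behaved alike, at 5844, 5539, 6469 and 5708 CPM in ADF+ENZ tumours and 0.33 ± 0.11 over Vehicle, with an adjusted p of 0.0600 by edgeR, 0.0146 by DESeq2 and 0.0423 by limma-voom. With the share of reads in no gene as a covariate, Yeats4 (edgeR adjusted p = 0.00345) and Lrrc10 (edgeR adjusted p = 0.0188) were still called against Vehicle, while Cct2 had an edgeR adjusted p of 0.0518 and Slc35e3 of 0.102.

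**Figure D4:**
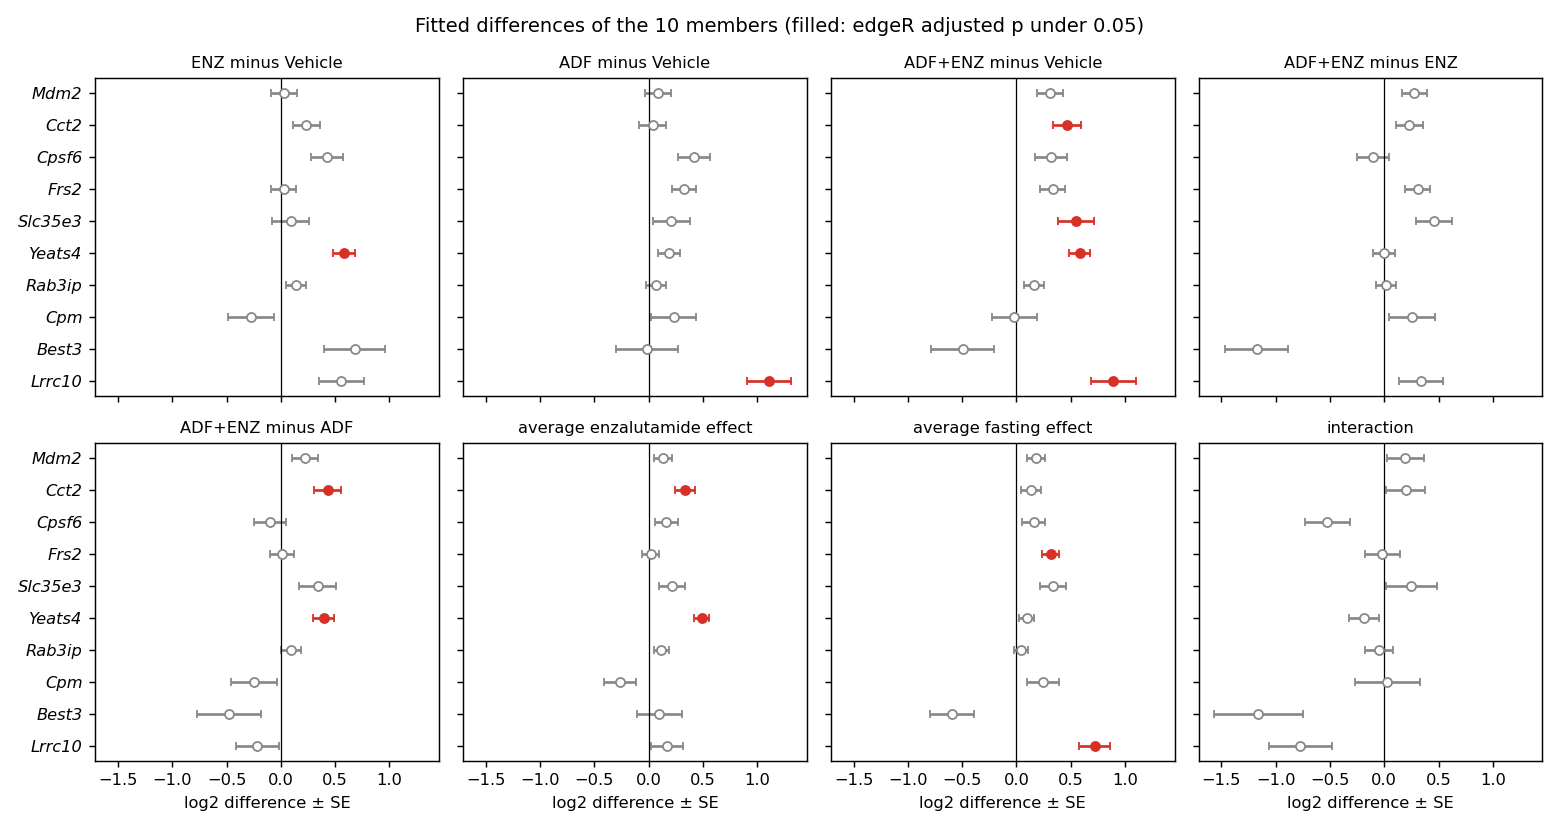
Fitted log2 difference (point) and SE (bar) of the 10 members in 8 treatment comparisons; filled points have an edgeR adjusted p under 0.05. All filled points lie right of 0, Yeats4 is filled in 4 comparisons, Cct2 and Lrrc10 in 3 each, and Slc35e3 and Frs2 in 1 each, while Best3 reaches -1.17 in ADF+ENZ minus ENZ.

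Adding fasting to enzalutamide moved no member past the edgeR threshold. None of 10 was called, against 1.09% of all genes in either direction (0.813% up and 0.274% down). DESeq2 called 2 and limma-voom called 1, against 3.55% and 1.54% of all genes. The lowest p belonged to Best3, at 11.2, 14.5, 16.8 and 13.2 CPM in ENZ and 3.51, 7.50, 4.27 and 8.73 CPM in ADF+ENZ tumours. The groups did not overlap on 125 to 317 and 39 to 216 counts. Its difference was -1.17 ± 0.29, with an adjusted p of 0.0603 by edgeR, 0.00262 by DESeq2 and 0.0328 by limma-voom. Frs2 (0.31 ± 0.11) was the other DESeq2 call, at an adjusted p of 0.0490 against 0.191 by edgeR, and Mdm2 was 0.28 ± 0.12 higher (edgeR adjusted p = 0.269).

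Under fasting, enzalutamide raised Yeats4 and Cct2. These 2 of 10 were called up, against 8.72% of all genes (16.3% in either direction), and none was called down, against 7.54%. Yeats4 was 1073, 821, 837 and 839.6 CPM in ADF tumours, each below the lowest ADF+ENZ tumour, and the rise was 0.39 ± 0.098 (edgeR adjusted p = 0.0138). Cct2 was 14053, 10848, 10175 and 9172 CPM in ADF tumours, where replicate 1 lay inside the ADF+ENZ range, and the rise was 0.43 ± 0.13 (edgeR adjusted p = 0.0279).

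These calls depended on single libraries. The Yeats4 call was lost without ADF replicate 4 (0.37, edgeR adjusted p = 0.0518). The Cct2 call was lost without ADF replicate 2, 3 or 4 or ADF+ENZ replicate 3, with edgeR adjusted p-values of 0.0520, 0.0834, 0.104 and 0.0884. Without ADF replicate 1 the count rose to 4 members, against 17.7% of all genes in either direction. Without ADF replicate 4 it fell to 0, against 6.22% of all genes. With the share of reads in no gene as a covariate no gene of 18946 was called, Yeats4 was 0.12 higher and Cct2 turned to -0.03 (edgeR adjusted p = 0.9998 for each). Fitted on the ADF and ADF+ENZ libraries alone, Cct2 had an edgeR adjusted p of 0.0665. Mdm2 differed by 0.23 ± 0.12 (edgeR adjusted p = 0.195).

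Averaged over both diets, enzalutamide raised Yeats4 by 0.49 ± 0.070 (edgeR adjusted p = 0.000309) and Cct2 by 0.33 ± 0.090 (edgeR adjusted p = 0.0173). Both calls held in all 16 fits that left out 1 library, and 2 of 10 members stood against 8.95% of all genes called up (17.3% in either direction). None was called down, against 8.36%. With the covariate for reads in no gene, 27 genes were called, and the edgeR adjusted p was 0.180 for Yeats4 and 0.844 for Cct2. In freely fed mice alone, Cct2 differed by 0.24 ± 0.13 and was not called (edgeR adjusted p = 0.313). Mdm2 differed by 0.13 ± 0.084 in the average (edgeR adjusted p = 0.304).

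Averaged over both drug states, fasting raised Lrrc10 by 0.72 ± 0.14 (edgeR adjusted p = 0.00757) and Frs2 by 0.32 ± 0.080 (edgeR adjusted p = 0.0279). These 2 of 10 members stood against 2.36% of all genes called up (5.06% in either direction), and none was called down, against 2.7%. The Lrrc10 call held in all 16 omissions and with the covariate (edgeR adjusted p = 0.0380). The Frs2 call was lost without Vehicle replicate 2, ENZ replicate 2 or 3, ADF replicate 1 or 3, or ADF+ENZ replicate 3, where it was 0.28 to 0.31 with edgeR adjusted p-values of 0.0543 to 0.0682, and with the covariate (0.31, edgeR adjusted p = 0.0738). Best3 had -0.60 ± 0.20, with an adjusted p of 0.0979 by edgeR, 0.0317 by DESeq2 and 0.0460 by limma-voom.

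The interaction asks whether the effect of fasting differed with and without drug. No member was called by edgeR, against 3.1% of all genes in either direction (2.18% up and 0.918% down). The members with the smallest p were Cpsf6 (-0.53 ± 0.21), Best3 (-1.16 ± 0.41) and Lrrc10 (-0.77 ± 0.29), with edgeR adjusted p-values of 0.155, 0.118 and 0.133. DESeq2 called 1, Best3, at an adjusted p of 0.0462, and limma-voom called none, against 7.03% and 4.6% of all genes. Mdm2, Cpsf6, Best3, Rab3ip and Cpm were called by edgeR in none of the 8 comparisons. Rab3ip ranged from 586 to 789.8 CPM over 16 tumours, the narrowest relative spread of the members, and Cpm from 30.4 to 68.8 CPM.

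The partner genes of each member were counted in the same fit. The averaged enzalutamide effect, in which Cct2 rose by 0.33, also called 4 of its 7 TRiC partners up and none down, against 8.95% of all genes called up and 8.36% down. They were Cct6a (0.33 ± 0.064, edgeR adjusted p = 0.00289), Tcp1 (0.31 ± 0.080), Cct5 (0.28 ± 0.075) and Cct3 (0.22 ± 0.073). The first 3 kept their call in all 16 omissions. Cct3 (edgeR adjusted p = 0.0476) kept it only without ENZ replicate 1 and without ADF replicate 1, and reached 0.114 at most; with DESeq2 size factors it had 0.0512. The median of the 7 was 0.22, against -0.01 over all genes. With the share of reads in no gene as a covariate none of the 4 was called, with edgeR adjusted p-values of 0.610 for Cct6a, 0.856 for Tcp1, 0.917 for Cct5 and 0.935 for Cct3. Against Vehicle, ADF+ENZ called 1 of 7 up and 0 down, against 5.97% and 6.53% of all genes. This was Cct6a at 0.34 ± 0.091, a call lost without Vehicle replicate 4 or ADF+ENZ replicate 3 (edgeR adjusted p up to 0.0687). In freely fed mice, enzalutamide called 0 of the 7 (median 0.08), against 1.81% of all genes called up and 3.62% down. Under fasting it called 5 of 7 up and 0 down (median 0.30), against 8.72% and 7.54%. With the covariate for reads in no gene, that count under fasting was 0, and no gene of 18946 was called.

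Of the 16 TIP60 and SRCAP partners of Yeats4, the averaged enzalutamide effect called 5 up and none down, against 8.95% and 8.36% of all genes. Vps72, a histone variant chaperone, rose by 0.29 ± 0.067, Epc1 by 0.22 ± 0.055, Meaf6 by 0.27 ± 0.069 and the acetyltransferase Kat5 by 0.23 ± 0.067 (edgeR adjusted p = 0.00864, 0.0112, 0.0147 and 0.0253). Vps72, Epc1 and Meaf6 kept the call in all 16 omissions. Kat5 lost it without Vehicle replicate 4, ENZ replicate 3, ADF replicate 3 or ADF+ENZ replicate 3 (edgeR adjusted p up to 0.0615). The fifth was Actl6a, an actin-related subunit, named after its value was seen, at 0.25 ± 0.084 (edgeR adjusted p = 0.0439). Its call was kept only without Vehicle replicate 1, ENZ replicate 1, ADF replicate 1 or ADF+ENZ replicate 2 and reached 0.0934 at most. Each of these 5 values was below the 0.49 of Yeats4. In cleavage factor Im, Nudt21 rose by 0.24 ± 0.070 (edgeR adjusted p = 0.0274), while Cpsf6 itself was at 0.16 ± 0.10 and not called. Nudt21 lost its call without Vehicle replicate 1, 3 or 4, ENZ replicate 3 or 4, ADF replicate 3 or 4, or ADF+ENZ replicate 1 (edgeR adjusted p up to 0.0598). With the covariate for reads in no gene, no gene of any partner list was called in this average, against 0.143% of all genes.

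Of 28 p53 targets, ADF+ENZ against Vehicle called 1 up and 4 down, against 5.97% of all genes called up and 6.53% down. Phlda3 fell by 0.77 (SE 0.14), Susd6 by 0.39 (SE 0.086), Rrm2b by 0.36 (SE 0.090) and Ddit4l by 1.26 (SE 0.32), while Trp53inp1 rose by 0.56 ± 0.12 (edgeR adjusted p = 0.00231, 0.00636, 0.0145, 0.0206 and 0.00522). Ddit4l was named after its value was seen. Its call was lost without ADF+ENZ replicate 2 or 3 (edgeR adjusted p up to 0.0656), without a filter on low counts (0.0575) and in the fit of the 2 groups alone (0.0712). The other 4 calls were kept in all 16 omissions. With the covariate for reads in no gene all 5 kept their call, with edgeR adjusted p-values from 0.00778 for Phlda3 to 0.0325 for Ddit4l. The median of the 28 was -0.10. Enzalutamide alone called 0 up and 3 down, against 1.81% and 3.62% of all genes, and fasting alone 0 up and 2 down, against 4.05% and 4.96%.

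In the other comparisons the counts were as follows. ADF+ENZ against ENZ called none of the 28, against 0.813% of all genes called up and 0.274% down. The interaction also called none, against 2.18% and 0.918%. ADF+ENZ against ADF called 1 of the 28 up and 0 down, against 8.72% and 7.54% of all genes. The gene called up was Ei24, at 0.33 ± 0.094 (edgeR adjusted p = 0.0231). Its call was lost without ADF replicate 2, 3 or 4 or ADF+ENZ replicate 3 or 4 (edgeR adjusted p up to 0.0907) and in the fit of the 2 groups alone (0.0596), and the covariate turned its value to -0.0011. The averaged enzalutamide effect called 1 up and 3 down, against 8.95% and 8.36% of all genes. Ei24 was at 0.27 ± 0.066 (edgeR adjusted p = 0.0112), kept in all 16 omissions but not with the covariate (0.792). The averaged fasting effect called 1 up and 2 down, against 2.36% and 2.7% of all genes.

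Of 10 p53 regulators, the averaged enzalutamide effect called 2 up and 1 down, against 8.95% and 8.36% of all genes. Cdkn2a rose by 0.37 ± 0.081 and Rpl5 by 0.26 ± 0.071, and Mdm4 fell by 0.30 (SE 0.072). Their edgeR adjusted p-values were 0.00586, 0.0175 and 0.0101, with calls kept in all 16 omissions. With the covariate the same p-values were 0.651, 0.785 and 0.906. Enzalutamide alone called 0 of the 10 up and 1 down, against 1.81% and 3.62%. That gene was Ppm1d at -0.61 (edgeR adjusted p = 0.00737), kept in all 16 omissions. Ppm1d was also called down against Vehicle in ADF (-0.54, edgeR adjusted p = 0.0144) and in ADF+ENZ (-0.42, edgeR adjusted p = 0.0324). These calls were lost in 2 and 5 of 16 omissions. Trp53 was 0.39 ± 0.12 higher in ADF+ENZ than in Vehicle tumours (edgeR adjusted p = 0.0374). This call was lost without Vehicle replicate 1, 3 or 4 or ADF+ENZ replicate 1 or 3 (edgeR adjusted p up to 0.142), with the covariate (0.0873) and in the fit of the 2 groups alone (0.0508). In the FGF group, Fgfr1 rose with Frs2 under fasting averaged over drug states (0.30 ± 0.075, edgeR adjusted p = 0.0240), a call lost without ADF+ENZ replicate 3 (edgeR adjusted p = 0.0518). Dusp6, a feedback phosphatase of this pathway, fell by 0.35 (SE 0.061, edgeR adjusted p = 0.00335) and kept its call in all 16 omissions. These were 2 of 11 tested FGF partners, 1 in each direction, against 2.36% of all genes called up and 2.7% down.

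Within groups, the members varied together from tumour to tumour. With group means subtracted, 44 of the 45 pairs of members had a positive Pearson r of log2 CPM over 16 libraries, with a median of 0.50 and a range from -0.06 (Cct2 with Cpm) to 0.87 (Cct2 with Yeats4). Among the 7 high members the median was 0.58. For scale, adjacent protein-coding pairs across the genome had a median r of 0.20 over 13742 pairs. All points of a pair share a library and its scaling, so these values are descriptive.

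**Figure D5:**
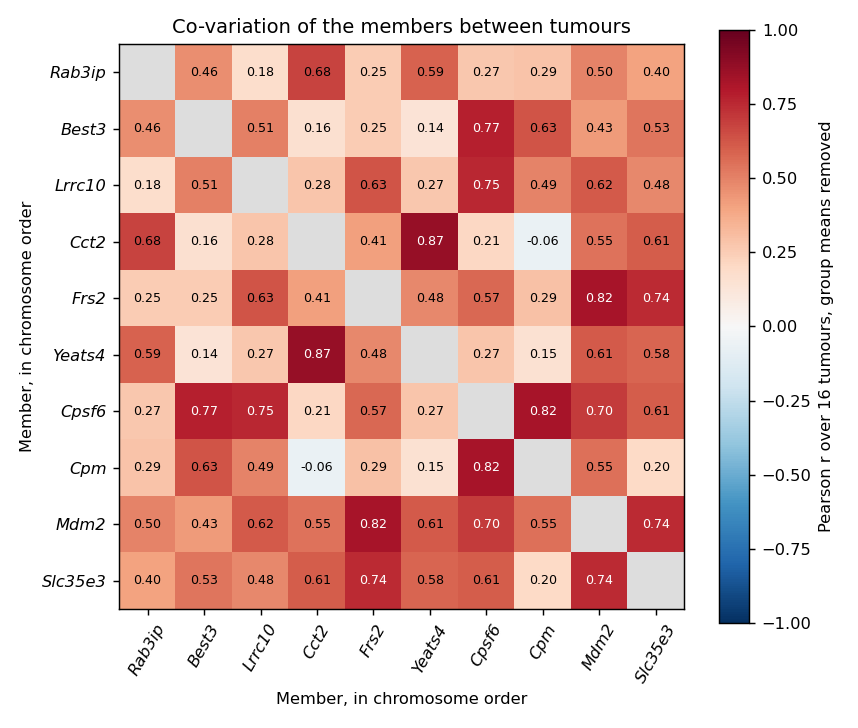
Pearson r of log2 CPM between members over 16 tumours after group means were subtracted, with members in chromosome order. Values run from -0.06 to 0.87, and Mdm2 shows 0.82 with Frs2 and 0.74 with Slc35e3.

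A few tumours deviated most. ADF replicate 1 lay 0.29 above its group mean on the log2 scale, averaged over the 7 high members, with 7 of 7 above the mean. Vehicle replicate 4 lay 0.15 above, also with 7 of 7. ADF replicate 2 lay at -0.19 and Vehicle replicate 2 at -0.18, each with 0 of 7 above. The other 12 libraries deviated by -0.10 to 0.09. The spread of single high members within groups ran from 0.12 for Rab3ip to 0.27 for Slc35e3 (SD of log2 CPM), against a median of 0.24 over all genes tested and 0.32 to 0.48 for the 3 low members.

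Lyz2, although it lies between Yeats4 and Cpsf6 and matches the high members in level, did not vary with them. Its median r with the 10 members was -0.22, from -0.62 with Lrrc10 to 0.21 with Yeats4. With 5 other macrophage markers its median r was 0.35, from -0.22 with Cd163 to 0.69 with Csf1r. The 6 macrophage markers, Lyz2 included, summed to 1191 to 1945 CPM over the 16 tumours. The lncRNA 4933412E12Rik likewise had an r of -0.28 with Mdm2, whereas Gm48772 had 0.75.

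Beyond the region, the genes most like Mdm2 in this measure were Ppp1r12a, Tm2d2, Gm28721, Gpn3 and Gm26852, with r of 0.89, 0.89, 0.85, 0.85 and 0.84 over 16 libraries. They lie on chromosomes 10, 8, 1, 5 and 7. Among the members, Frs2 had the highest r with Mdm2 when group means were removed, at rank 9 of 18945 genes (r = 0.82), followed by Slc35e3 at rank 57 (r = 0.74) and Cpsf6 at rank 114 (r = 0.70). The other 6 members ranked from 324 to 1647. By this measure all 5 exceeded every member, but the order depended on the measure. With group means kept, Slc35e3 was the member most like Mdm2 (r = 0.86, against 0.77 for Frs2), above Ppp1r12a (0.79), Tm2d2 (0.60), Gpn3 (0.54) and Gm26852 (0.49) and below Gm28721 (0.88). By Spearman's rho with group means removed, Frs2 at 0.81 was again the first member, above Tm2d2 (0.79) and Gpn3 (0.70).

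Ppp1r12a, a regulatory subunit of myosin phosphatase, is on chromosome 10 too and averaged 724 ± 97.2 RPKM, rank 18, between Mdm2 and Frs2 in level. Its nearest protein-coding neighbours were low, at 3.89 RPKM for Otogl and 10.3 RPKM for Pawr. Tm2d2, on chromosome 8, averaged 116 RPKM and is the fourth protein-coding gene from Fgfr1, which itself had an r of 0.75 with Mdm2 and rank 45. Between and around these genes, Adam9 averaged 180.0 RPKM, Nsd3 40.3 RPKM, Tacc1 28.1 RPKM and Letm2 6.02 RPKM. Just outside the block on the Slc35e3 side, Nup107 and Rap1b had an r of 0.08 and -0.33 with Mdm2. Myrfl, the nearest protein-coding gene on the Rab3ip side, had an r of 0.58 (rank 479). That was above the members Cpm (0.547), Cct2 (0.546), Rab3ip (0.495) and Best3 (0.43).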

How the data were processed

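Bulk tumour RNA was sequenced as paired ends in 16 libraries, 4 per group. The authors deposited raw read counts per gene; per the submitters' processing notes, Trim Galore, HISAT2, featureCounts and DESeq2 were used, with builds mm39 and GRCh38 and no versions or roles given. The last 5 rows, which name no gene, were kept out of library sizes and tests. They hold among others the reads in no gene, 21.2% to 36.7% per library (as a percent of gene counts and these rows together). Gene names, gene types, exon lengths, strand, gene order, overlaps and the span of the block came from a GRCm38 annotation. It named 52133 of 55414 genes. Its build differs from the one named for the counts, so it served for these descriptions only.

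Counts were filtered with filterByExpr (minimum count 10, total 15), scaled by TMM and fitted with edgeR 4.0.16 (robust quasi-likelihood test, R 4.3.3) over all 16 libraries, with 8 contrasts and Benjamini-Hochberg adjustment at 0.05. The average effects are the mean of 2 simple differences, and the interaction is their difference. CPM values are TMM-scaled, and RPKM divides them by the union of exon lengths. Correlations used log2 CPM with a prior count of 2 and group means removed. The scripts were tested on simulated data. Alternatives were DESeq2 1.42.0, limma-voom (limma 3.58.1), DESeq2 size factors, other filters (none, or 1 CPM in 4 libraries), the 2 groups compared alone, scaling without the region, the share of reads in no gene as a covariate, each library left out, plain CPM, the longest transcript, and Spearman correlation or group means kept.

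Depth was 10072489 to 25505655 gene counts per library, so high members rest on 6479 counts or more in every library and Best3 and Lrrc10 on 39 to 317. The members, partner lists and markers were chosen with earlier results of these data known. Named genes are all members, every gene between them, the 5 nearest protein-coding genes on each side, up to 4 called genes per partner list by p, all TRiC and cleavage factor Im partners, and the 5 genes most like Mdm2.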

Additional observations from a re-analysis of the deposited data

Results flagged for a closer look

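In ADF tumours, Yeats4 was 1073 CPM in replicate 1 and 821 to 839.6 CPM in the other 3. The gap to the nearest tumour was 0.925 of the whole range of the group, above Dixon's critical value at 95% for 4 samples. Of 40 groups of 4 tested over the 10 members this was the only 1 flagged, and chance flags about 1 in 20. The same tumour had the highest value of its group for each of the 7 high members.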

How the results depend on the processing

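Of the 12 edgeR calls of members, all 12 held with DESeq2, limma-voom, DESeq2 size factors, the stricter filter and scaling without the region, 11 held without a filter and 7 of 8 pairwise calls held in fits of the 2 groups alone. The number of members called moved by more than 1.5 times as follows. DESeq2 called 2 in ENZ minus Vehicle, 3 in ADF minus Vehicle, 2 in ADF+ENZ minus ENZ and 1 in the interaction. In the same order, DESeq2 called 8.38%, 12.4%, 3.55% and 7.03% of all genes. Limma-voom called 2 in ADF minus Vehicle and 1 in ADF+ENZ minus ENZ, against 12.4% and 1.54% of all genes. The 2 groups alone gave 1 in ADF+ENZ minus ADF, against 15.4% of all genes. With the share of reads in no gene as a covariate 4 of 12 calls held, 7 were lost and 1 reversed. The counts were 0 in ADF minus Vehicle (0.0317% of all genes), 2 in ADF+ENZ minus Vehicle (8.33%) and 0 in ADF+ENZ minus ADF (0%). They were 0 for average enzalutamide (0.143% of all genes) and 1 for average fasting (2.86%). The share of reads in no gene is highest in all ADF libraries, so it and that group cannot be told apart. Calls among partner lists went from 23 to 35 with limma-voom and to 0 with the covariate for average enzalutamide, and from 10 to 6 with the covariate for average fasting. The share of all genes called went from 17.3% to 26.2% and to 0.143%, and from 5.06% to 2.86%. In ADF+ENZ minus ADF the covariate reversed Cct2 to -0.028, Trp53 to -0.21, Mdm4 to 0.078, Ei24 to -0.0011, Cct5 to -0.068, Cct7 to -0.0043 and Cct8 to -0.055, and for average enzalutamide Slc35e4 to -0.042. The cause was not tested.

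Leaving out 1 library, the number of members called ranged from 1 to 2 in ENZ minus Vehicle (2 without Vehicle replicate 4), 1 to 2 in ADF minus Vehicle (2 without Vehicle replicate 4 or ADF replicate 2) and 2 to 4 in ADF+ENZ minus Vehicle (2 without Vehicle replicate 1 or ADF+ENZ replicate 3). It ranged from 0 to 1 in ADF+ENZ minus ENZ (1 without Vehicle replicate 2 or ADF+ENZ replicate 4), 0 to 4 in ADF+ENZ minus ADF and 1 to 3 for average fasting. Partner list calls ranged from 8 to 22 in ADF+ENZ minus Vehicle, 15 to 29 for average enzalutamide and 4 to 11 for average fasting. All genes called ran from 6.21% to 12.9%, from 10.7% to 20.2% and from 2.94% to 5.81% there. In ENZ minus Vehicle they ran from 2.09% to 6.19%, and in ADF minus Vehicle from 3.17% to 10%. In ADF+ENZ minus ENZ they ran from 0.103% to 1.85%, and in ADF+ENZ minus ADF from 6.22% to 17.8%. The uncalled Mdm2 difference ranged from -0.014 to 0.093 in ENZ minus Vehicle, negative without Vehicle replicate 1 or 2, and from -0.035 to 0.17 in ADF minus Vehicle, negative without ADF replicate 1. By the longest transcript in place of all exons, levels were 1616 RPKM for Mdm2, 6313 for Cct2, 849.97 for Cpsf6, 825 for Frs2 and 259.9 for Rab3ip. No paired analysis was possible because the labels give no replicate numbers that link tumours across groups.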
